A study of Mus musculus with 3 samples.

Results

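The spots described here are those whose symbol in the array files is 1110001A07Rik (a former name of Ska2), Plk1, Melk or Esco2, 4 spots of 21761 probes in all. Each gene had 1 probe and 1 spot on each array. They were chosen by their measured log2 ratios on these same arrays between cells with the NaV1.2 C-terminus and control cells. Those log2 ratios are therefore a description and carry no test. N1E-115 is a mouse neuroblastoma line. On every array, RNA labelled with Alexa555 came from cells given pEGFP-C1, which expresses EGFP by itself. RNA labelled with Alexa647 came from cells given pEGFP-NaV1.2CT-Flag, in which EGFP is joined to 229 C-terminal residues of mouse NaV1.2, a neuronal sodium channel (gene Scn2a). That fusion is called NaV1.2CT here. Both plasmids were delivered with PEI, 2 µg each, 24 h after plating, RNA was collected 48 h later, and RNA of 3 dishes was pooled.

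A single array was labelled 5 mM glucose (called low glucose), and 2 were labelled 20 mM (called high glucose, replicates 1 and 2). A low-glucose medium is named for all of them in the growth protocol, so glucose is known from the sample labels only. Separate cultures are not stated for the arrays, and p-values then reflect only how these arrays vary, which may be technical. All arrays had the same dye orientation, so dye and plasmid cannot be told apart. By the numbering in the files, the 5 mM array belongs to a different array series from both 20 mM arrays, and glucose cannot be told apart from it. In bulk RNA, fewer cells with a transcript and less of it per cell cannot be told apart either.

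Over all probes, the log2 ratio of NaV1.2CT over EGFP had an SD of 0.10 at 5 mM, 0.10 on high glucose replicate 1 and 0.11 on replicate 2 after normalization within print blocks. The 1st and 99th percentiles were -0.28 and 0.23 at 5 mM, -0.31 and 0.22 on replicate 1, and -0.27 and 0.25 on replicate 2. Between 91.5% and 92.4% of probes were above the empty limit, which is the 95th percentile of the background-subtracted signal of the empty spots, in both channels. Spot brightness is given as A, the mean log2 intensity of both channels, and as its percentile among all probes of that array. Of 14 marker genes of sympathetic neuroblastoma, 13 were on the array, and their median percentile of A was 61.6. The chromogranin genes Chga and Chgb stood at 98.9 and 96.6 and the tyrosine hydroxylase gene Th at 79.1, whereas Tubb3 and Phox2a stood at 16.4 and 13.1. The medians were 56.1 for 6 fibroblast markers, 70.5 for 5 glial markers and 47.6 for 6 markers of blood, liver and muscle, with the glial gene Mbp at 98.2 and the liver gene Alb at 94.4. Brightness of different probes cannot be compared as expression, so these markers leave the labelled cell type unchecked.

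The encoded proteins all act on chromosomes or on cells in division. Before mitosis, cohesin holds the sister chromatids together, and the acetyltransferase Esco2 locks cohesin onto DNA during replication. In mitosis, kinetochores tie chromosomes to spindle microtubules, and the SKA complex, to which Ska2 belongs, steadies that attachment as microtubules shorten. Plk1, a Polo-like kinase, drives mitotic entry, centrosome maturation and kinetochore assembly, and it also phosphorylates proteins that release cohesin. Melk, a kinase related to AMPK in its catalytic domain, is most abundant in dividing cells and in neural progenitors. In proliferating cells many such genes share a late cell-cycle programme of transcription, in which CCAAT boxes, bound by NF-Y, cell cycle homology regions (CHR) and E2F sites take part.

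The upstream sequences of the genes are shown because such motifs are a feature that the choice of spots did not use. RefSeq's table for the build GRCm38.p6 held 3 of the 4 genes, and Esco2 is named only. Each sequence covers the 250 bases before the annotated start, on the plus strand, and capitals mark CCAAT. Ska2 lies at chr11:87109011-87109260, Plk1 at chr7:122159185-122159434 and Melk at chr4:44300667-44300916.
Ska2: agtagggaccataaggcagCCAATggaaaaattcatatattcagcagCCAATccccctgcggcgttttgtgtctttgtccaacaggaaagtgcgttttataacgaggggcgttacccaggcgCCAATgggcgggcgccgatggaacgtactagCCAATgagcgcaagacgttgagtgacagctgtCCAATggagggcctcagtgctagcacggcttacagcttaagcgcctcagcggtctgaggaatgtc
Plk1: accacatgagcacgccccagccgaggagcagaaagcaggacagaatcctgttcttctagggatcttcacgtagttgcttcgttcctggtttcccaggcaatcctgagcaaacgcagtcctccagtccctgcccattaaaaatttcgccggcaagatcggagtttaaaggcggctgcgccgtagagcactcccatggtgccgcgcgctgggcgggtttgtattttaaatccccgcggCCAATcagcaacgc
Melk: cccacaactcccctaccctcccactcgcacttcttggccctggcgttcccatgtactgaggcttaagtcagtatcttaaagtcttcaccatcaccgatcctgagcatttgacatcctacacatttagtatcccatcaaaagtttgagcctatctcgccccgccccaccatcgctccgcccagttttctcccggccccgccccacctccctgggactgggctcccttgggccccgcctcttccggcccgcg

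The Ska2 sequence held 5 CCAAT motifs on the printed strand, the first bases of which lay at -231, -203, -128, -97 and -65 from the start. Of 32851 promoters of the same length, 33.8% held CCAAT or its reverse ATTGG at least once, and 0.213% held 5 or more. Plk1 held a single CCAAT at -14, and Melk held none in these 250 bases. A CHR was searched as TTTGAA or TTCAAA, and none lay in the 250 bases of any of the 3 genes, against 16% of all promoters. In the 50 bases after the start, Plk1 held TTTGAA at 31, within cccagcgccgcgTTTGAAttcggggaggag, where capitals mark the motif, and 17.9% of promoters held it with those bases included. An E2F site was searched as TTTGGCG or CGCCAAA. It was found in Melk at 13 after the start, and 1.56% of promoters held it in the window that includes those 50 bases. The GC content was 54% for Ska2, 56.4% for Plk1 and 59.6% for Melk, against a median of 52.4% over all promoters. None of these motifs overlapped another, and a match describes the letters only.

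The spot named 1110001A07Rik (Ska2, listed under NM_025377) was brighter in the NaV1.2CT channel on each of the 3 arrays, and it was among the brightest spots of the array. Its raw EGFP intensity was 33656 at 5 mM, 41566 on high glucose replicate 1 and 39728 on replicate 2. Its raw NaV1.2CT intensity was 57624, 64994 and 65484 on the same arrays.

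The NaV1.2CT readings of the Ska2 spot stood at 87.9%, 99.2% and 99.9% of 65535, the highest value that a 16-bit scanner returns. On high glucose replicate 2 the SD over the pixels of the spot was 0.489% of its mean in that channel, against 28.4% at 5 mM and 2.65% on replicate 1. Among all gene spots, 0 at 5 mM, 5 on replicate 1 and 4 on replicate 2 reached 99% of the limit in the NaV1.2CT channel, and none did in the EGFP channel. The ratio of this spot at 20 mM is thus bounded from above by the scanner. At 5 mM the pixel SD was 16385 around a mean of 57624, so single pixels may have met the limit there too, which was not tested.

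After normalization within its print block, the log2 ratio of the Ska2 spot was 0.48 at 5 mM, 0.49 on replicate 1 and 0.49 on replicate 2. The mean was 0.49 (SD 0.0065, n = 3) or 1.40-fold, and at 20 mM it was 0.49 (SD 0.0017, n = 2) or 1.41-fold. Both means include the 2 arrays where the NaV1.2CT reading was near the scanner limit, so the agreement between arrays says little about their spread. Other processing of the same readings gave 0.33 to 0.96 at 20 mM. A second loess over intensity lowered the values to 0.45, 0.46 and 0.46. Ska2 ranked 3, 1 and 1 from the top of the 462 gene spots of its print block. The 8 adjacent spots ranged from -0.15 to 0.05 at 5 mM, from -0.07 to 0.07 on replicate 1 and from -0.18 to 0.11 on replicate 2, so none reached it. Those neighbours were dimmer, with A of at most 13.6, 13.5 and 13.3 where Ska2 had 15.4, 15.7 and 15.6.

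Against probes of like brightness the Ska2 spot stood out less. Its log2 ratio lay at the 98.6th, 98.2nd and 99th percentile of the 500 probes nearest in A, whose medians were 0.08, 0.07 and 0.07. Those 500 reached down to A of 14.8, 14.7 and 14.6. The 50 nearest had medians of 0.18, 0.26 and 0.22, and 4, 6 and 3 of them had a higher log2 ratio than Ska2. With the second loess the medians of these 50 were still 0.15, 0.23 and 0.19. The deposited z-score of the spot was 0.692, 2.26 and 1.5. In all 4 spots that score was above 0 where the deposited ratio of EGFP over NaV1.2CT lay below 1, and below 0 where it lay above 1. The probes nearest to Ska2 in brightness thus had median log2 ratios above 0, and how much of the Ska2 value that accounts for was not tested. Less bright probes did not share this, since the median in the band of A around 13.25 was -0.02 on each array.

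**Figure D1:**
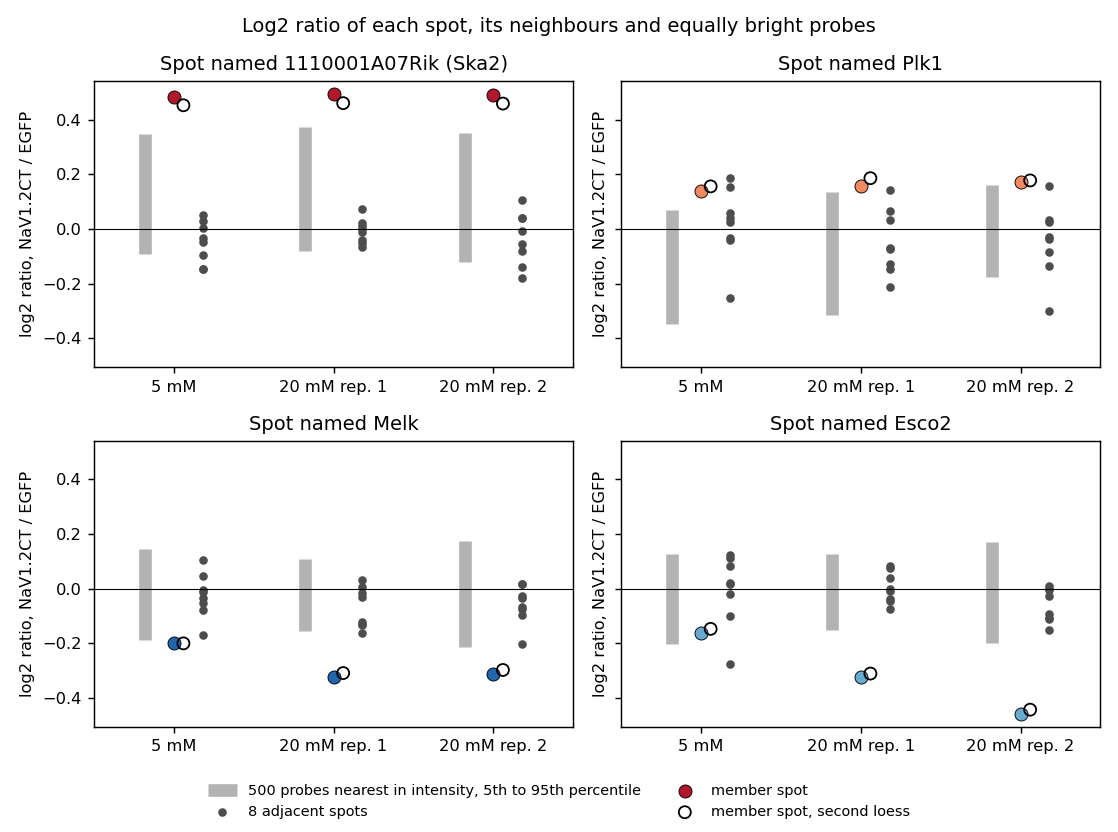
Log2 ratio of NaV1.2CT over EGFP (vertical axis) on the 3 arrays (horizontal axis, by glucose) for the spots named 1110001A07Rik (Ska2), Plk1, Melk and Esco2. Filled points are the spots, open circles the same spots after a second loess, small dark points the 8 adjacent spots, and grey bars the 5th to 95th percentile of the 500 probes nearest in intensity. Ska2 sits between 0.48 and 0.49 above all of its neighbours, and Plk1 between 0.14 and 0.17 above the top of its grey bars. Melk and Esco2 sit below 0 on every array, between -0.20 and -0.32 and between -0.16 and -0.46.

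Plk1, the Polo-like kinase (NM_011121), was close to the limit of detection. Its raw EGFP intensity was 148 at 5 mM, 230 on replicate 1 and 251 on replicate 2, and its raw NaV1.2CT intensity was 149, 207 and 243. After background subtraction the EGFP values were 100, 190 and 209, above empty limits of 78.1, 83.7 and 93.3. The NaV1.2CT values were 92.7, 159 and 193, above limits of 84.7, 67.8 and 73.7. At 5 mM the NaV1.2CT signal thus exceeded the limit by a small margin.

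The log2 ratio of Plk1 was 0.14 at 5 mM, 0.16 on replicate 1 and 0.17 on replicate 2, with a mean of 0.16 (SD 0.015, n = 3) or 1.11-fold. The second loess gave 0.16, 0.19 and 0.18. Before any normalization the ratio of raw intensities was 0.01, -0.15 and -0.05 on the log2 scale, so the NaV1.2CT reading was not consistently the higher of both. The array medians of that uncorrected ratio were -0.25, -0.26 and -0.26, which the normalization sets near 0. Plk1 lay at the 97.8th, 95.6th and 95.6th percentile of the 500 probes nearest in A. Of its 8 neighbours, 6, 8 and 8 had a lower log2 ratio, and 2 at 5 mM had a higher one. It ranked 26, 14 and 10 from the top of 452 gene spots in its block. The deposited z-score was 2.12 at 5 mM and 1.26 on replicate 1, and none was given on replicate 2. Dim spots respond to the background correction, and with plain subtraction the 3 values were 0.31, 0.23 and 0.31.

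**Figure D2:**
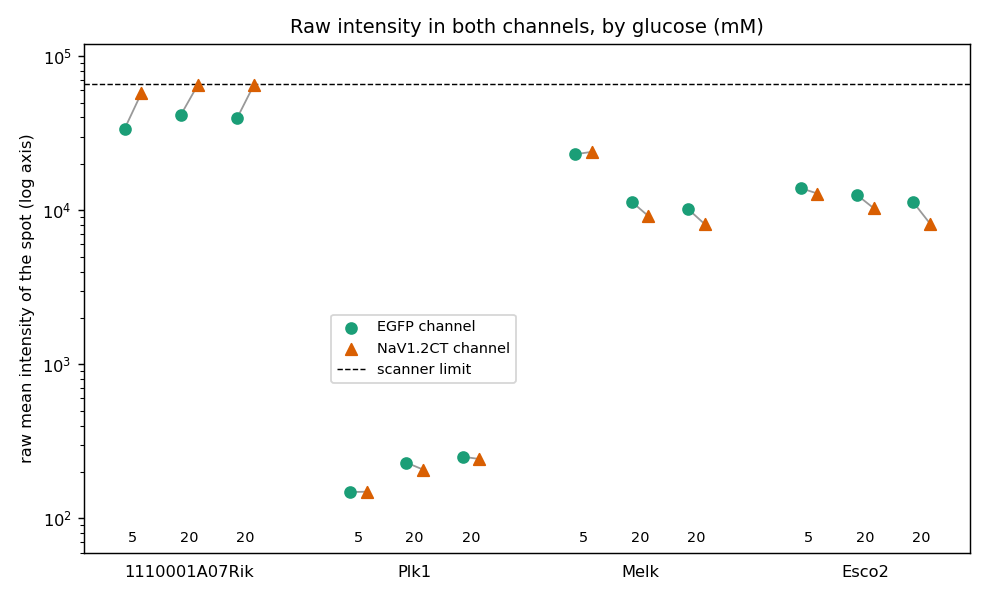
Raw mean intensity (vertical log axis) of each spot in the EGFP channel (circles) and the NaV1.2CT channel (triangles) on the 3 arrays, marked by glucose in mM; the dashed line is the scanner limit of 65535. Ska2 reaches 99.2% and 99.9% of that limit in the NaV1.2CT channel at 20 mM, whereas Plk1 stays between 148 and 251 in both channels.

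Melk, the AMPK-related kinase (NM_010790), was a bright spot with a lower NaV1.2CT signal at 20 mM. Its raw EGFP intensity was 23096 at 5 mM, 11371 on replicate 1 and 10202 on replicate 2, and its raw NaV1.2CT intensity was 23942, 9151 and 8115. The NaV1.2CT reading was below the EGFP reading on both high glucose arrays and above it at 5 mM. The normalized log2 ratio was -0.20 at 5 mM, -0.32 on replicate 1 and -0.31 on replicate 2. The mean was -0.28 (SD 0.070, n = 3), 0.825 times the control level, and at 20 mM it was -0.32 (SD 0.0075, n = 2), 0.802 times. With plain median centring of each array the values were 0.29, -0.05 and -0.04, so the mean changed sign to 0.07.

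All 8 spots around Melk had a higher log2 ratio on every array. It ranked 19, 7 and 4 from the bottom of the 464 gene spots of its block. Among the 500 probes nearest in A it lay at percentile 4.2, 0.4 and 1.0, and of the 50 nearest 2, 0 and 1 were lower. The second loess left it at -0.20, -0.31 and -0.30. The deposited z-score was -1.20, -3.60 and -2.32. Rank, percentile and z-score come from the same readings as the ratio that chose Melk, so they are no separate evidence of a difference between plasmids or arrays. The same holds for Ska2, Plk1 and Esco2, and for the comparisons with adjacent spots.

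Esco2, the cohesin acetyltransferase (AK010391), lay in the same print block as Melk, 8 rows away. Its raw EGFP intensity was 13917 at 5 mM, 12575 on replicate 1 and 11274 on replicate 2, and its raw NaV1.2CT intensity was 12835, 10292 and 8165. The NaV1.2CT reading was the lower on all 3 arrays, by the most on replicate 2. The log2 ratio was -0.16, -0.32 and -0.46, with a mean of -0.31 (SD 0.15, n = 3), 0.804 times the control level. At 20 mM the mean was -0.39 (SD 0.095, n = 2), 0.763 times. Esco2 varied the most of the 4 spots.

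Of the 8 spots around Esco2, 7 had a higher log2 ratio at 5 mM and 8 on each high glucose array. It ranked 35 and 6 from the bottom of its block at 5 mM and on replicate 1, and it was the lowest of the 464 on replicate 2. Among the 500 probes nearest in A it lay at percentile 9.0, 0.2 and 0.0, and of the 50 nearest 4, 0 and 0 were lower. The second loess gave -0.15, -0.31 and -0.44, and the z-score was -1.31, -2.84 and -3.11. With plain median centring the values were 0.12, -0.03 and -0.17, so the sign at 5 mM turned while the mean stayed below 0 at -0.03.

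**Figure D3:**
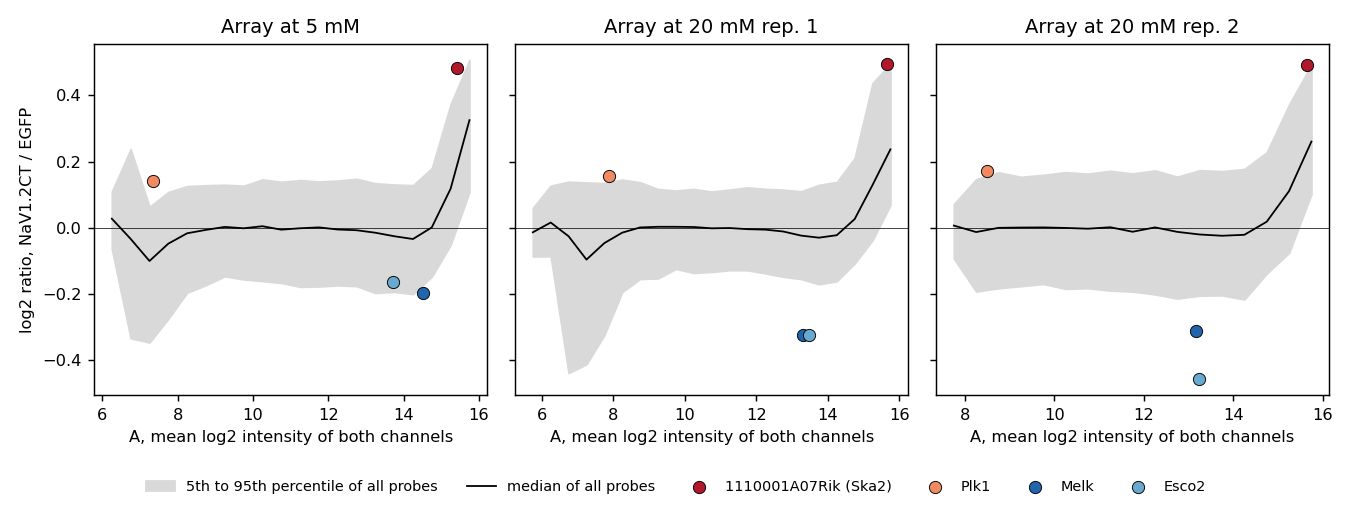
Log2 ratio of NaV1.2CT over EGFP (vertical axis) against A, the mean log2 intensity of both channels (horizontal axis), on each array. The line is the median and the grey band the 5th to 95th percentile of all probes in steps of A; coloured points are the 4 spots. The median bends upward at the bright end, where Ska2 lies at A between 15.4 and 15.7, while Melk and Esco2 lie below the band on both high glucose arrays.

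The print blocks themselves differed before normalization. The median uncorrected log2 ratio of the block of Ska2 was -0.44, -0.45 and -0.38, below the array medians, and that of the block of Melk and Esco2 was -0.19, -0.23 and -0.22. The block of Plk1 had -0.19, -0.19 and -0.21. Normalization within blocks placed Ska2 higher, and Melk and Esco2 lower, than normalization over the whole array. With that single loess over the array Ska2 was 0.41, 0.28 and 0.38, Plk1 0.16, 0.21 and 0.21, Melk -0.10, -0.25 and -0.23, and Esco2 -0.09, -0.25 and -0.37. Each spot kept its sign on every array under that setting.

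**Figure D4:**
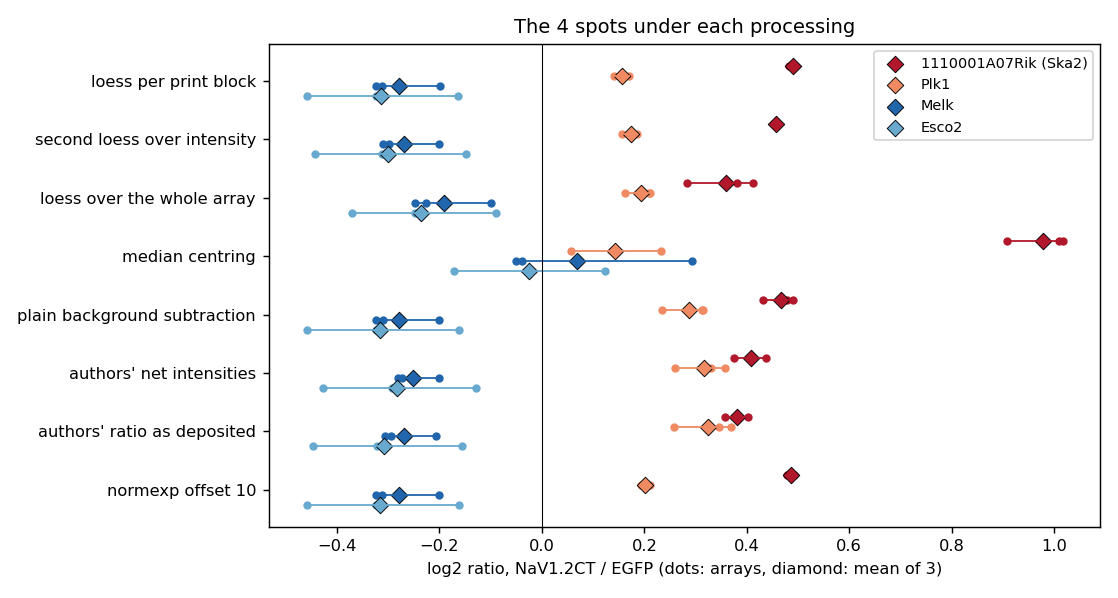
Log2 ratio of the 4 spots (horizontal axis) under each processing (rows); small dots are the 3 arrays, diamonds their means and lines their range. Ska2 and Plk1 stay above 0 under every processing, Esco2 has a mean below 0 under every processing, and Melk has a mean above 0, at 0.07, with median centring alone.

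Between glucose levels, the ratios of the 4 spots are again a description, since the same ratios on the same arrays chose them. The log2 ratio at 5 mM minus that at 20 mM was -0.01 for Ska2, whose 20 mM readings were near the scanner limit, and -0.02 for Plk1. It was 0.12 for Melk (SE 0.071) and 0.23 for Esco2 (SE 0.081), so both lay nearer to 0 on the low glucose array. The SE comes from limma, in which the lone low glucose array was assumed to vary like the others.

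The control channel alone gave the level of each gene in cells with EGFP. The normalized log2 EGFP level of Melk was 14.4 at 5 mM, 13.6 on replicate 1 and 13.5 on replicate 2, a difference of -0.85 (SE 0.19, limma adjusted p = 0.0622). For Plk1 it was 7.45, 8.06 and 8.27, a difference of 0.72 (SE 0.21, limma adjusted p = 0.0984). The Plk1 difference was 1.23 with plain background subtraction, and it passed under that setting. It was 1.34 with median scaling of the arrays and 0.72 with the second loess, and it passed under neither. That of Melk was -0.86, -0.71 and -0.86 in the same order. Ska2 stood at 15.2, 15.4 and 15.4, a difference of 0.19 (SE 0.19, limma adjusted p = 0.546), and Esco2 at 13.5, 13.7 and 13.7, a difference of 0.25 (SE 0.19, limma adjusted p = 0.431). Each difference rests on 1 low glucose array. With this processing none of the 4 passed, in a comparison in which 13.5% of probes passed (6.16% higher, 7.33% lower). In the NaV1.2CT channel the same levels were 14.2, 13.3 and 13.2 for Melk and 7.59, 8.22 and 8.45 for Plk1.

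The other genes of 9 lists mostly did not pass. The lists cover mitosis, cohesion, proliferation and DNA replication, and the kinase families of Plk1 and Melk. They hold 180 genes, with 146 on the array besides the 4. At 20 mM, 3 rose, 1 fell and 142 did not pass, where 2.11% of all probes passed (0.689% higher, 1.42% lower). Across the 3 arrays, 2 rose, 1 fell and 143 did not pass, where 3.85% of all probes passed (1.17% higher, 2.68% lower). Their median log2 ratio was 0.01 in both comparisons, with 82 and 84 of the 146 above 0, and the medians of all probes were -0.0025 and -0.0034 with 48.7% and 48.1% above 0. Of the 146, 107 exceeded the empty limit on each of the arrays. In the comparison of ratios between glucose levels none of the 146 passed in limma, where 0.0276% of all probes passed (0.0184% higher, 0.00919% lower).

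Among 25 other kinetochore genes, 1 rose in either comparison. That was Knl1, the scaffold that receives checkpoint proteins at the kinetochore. Its log2 ratio was 0.30 at 5 mM, 0.34 on replicate 1 and 0.24 on replicate 2 (mean at 20 mM 0.29, SD 0.069, n = 2, limma adjusted p = 0.0281; mean of all 0.29, SD 0.050, n = 3, limma adjusted p = 0.0114). A dimmer probe for Knl1 gave 0.02 and 0.01 in the same comparisons and did not pass. Ska1, a partner of Ska2 in the SKA complex, had 0.02, 0.07 and 0.30 (limma adjusted p = 0.111 at 20 mM and 0.170 across the arrays), and Ska3 had no probe matched here. The list's median log2 ratio was 0.02 at 20 mM and 0.01 across the arrays.

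Among 24 other mitotic kinases and spindle checkpoint genes, 1 fell and none rose. That was Bora, the cofactor with which Aurora A activates Plk1. Its log2 ratio was -0.10, -0.29 and -0.19 (mean at 20 mM -0.24, SD 0.073, n = 2, limma adjusted p = 0.0391; mean of all -0.19, SD 0.099, n = 3, limma adjusted p = 0.0446). Across the 3 arrays Bora did not pass without high glucose replicate 1 (-0.14, limma adjusted p = 0.177) or without replicate 2 (-0.20, limma adjusted p = 0.0690). Aurkb, the kinase of the chromosomal passenger complex, had -0.01, 0.15 and 0.15 (limma adjusted p = 0.0949 at 20 mM). The median of the list was 0.03 at 20 mM, and 20 of the 24 lay above 0, though only 11 exceeded the empty limit on each array.

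Of the other Polo-like kinases, Plk3, a stress-response kinase, had a log2 ratio of -0.12 at 5 mM, 0.17 on replicate 1 and 0.29 on replicate 2. It rose at 20 mM (mean 0.23, SD 0.082, n = 2, limma adjusted p = 0.0440) and did not pass across the arrays (0.11, limma adjusted p = 0.334). It was above the empty limit on 2 of 3 arrays. Plk2 and Plk4 were above that limit on 0 arrays. Of 9 other AMPK-related kinases none passed in either comparison. Nuak1 and Mark4, which act on cell adhesion and on microtubules, had the lowest means across the arrays, -0.13 (limma adjusted p = 0.0754) and -0.14 (limma adjusted p = 0.0787).

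Of 18 other cohesin and cohesion genes, 0 passed in either comparison, with medians of 0.01 and -0.0025. Esco1, the second acetyltransferase of cohesin, had -0.05 at 5 mM, -0.07 on replicate 1 and -0.06 on replicate 2 (limma adjusted p = 0.373 at 20 mM and 0.299 across the arrays). Cdca5 (sororin), which guards acetylated cohesin, had -0.05, -0.05 and -0.17, with limma adjusted p of 0.201 and 0.191. The cohesin subunit Rad21 had -0.06, 0.09 and -0.14, on either side of 0.

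Of 20 cyclin, phosphatase and anaphase-promoting complex genes, 1 rose. That was Ccna1, the cyclin A of the germ line, at 0.19, 0.16 and 0.34 (mean at 20 mM 0.25, limma adjusted p = 0.0473; mean of all 0.23, SD 0.096, n = 3, limma adjusted p = 0.0297), and without high glucose replicate 2 it did not pass (0.18, limma adjusted p = 0.0505). None of 6 condensin genes, 20 motor and spindle genes or 22 proliferation and replication genes passed. The condensin median was -0.09 at 20 mM and -0.06 across the arrays, and that of the proliferation genes was -0.03 and -0.02. The proliferation marker Mki67 had -0.03, -0.01 and -0.07 (limma adjusted p = 0.613 at 20 mM). Foxm1, a transcription factor that activates Plk1 and other mitotic genes, had -0.03, -0.19 and -0.19 (limma adjusted p = 0.0556 at 20 mM and 0.103 across the arrays). With the second loess Foxm1 did pass at 20 mM (-0.18, limma adjusted p = 0.0391) but not across the arrays (-0.12, limma adjusted p = 0.118).

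Among the cell type markers, none of 13 of sympathetic neuroblastoma rose at 20 mM, where 0.689% of all probes rose. Across the 3 arrays 2 of the 13 rose, where 1.17% of all probes did. These were the transcription factor gene Isl1 (mean 0.18, limma adjusted p = 0.0420) and the neurofilament gene Nefm (mean 0.16, limma adjusted p = 0.0461), and without the low glucose array both had a limma adjusted p of 0.106. Neither passed without high glucose replicate 1 (limma adjusted p = 0.0523 for Isl1 and 0.170 for Nefm) or with an offset of 10, plain subtraction, net intensities or the authors' ratio. Nefm did not pass with the second loess either (limma adjusted p = 0.0519). None of the markers of fibroblasts, glia, or blood, liver and muscle passed in either comparison of ratios, and their part in the values above was not tested.

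Bora, Ccna1 and Plk3 were dim probes, below the 25th percentile of mean A (Bora at 15.3 and Ccna1 at 22.7). With dim probes left out they were not tested, whereas Knl1 passed (limma adjusted p = 0.00782 at 20 mM and 0.00365 across the arrays). The calls for Knl1, Bora, Ccna1 and Plk3 depended on the background correction. With plain subtraction, with the authors' net intensities and with the authors' ratio none of them passed, and the limma adjusted p ranged from 0.0694 to 0.193 over the calls made with normexp. Their log2 ratios at 20 mM were no smaller under plain subtraction, at 0.33 for Knl1, -0.38 for Bora, 0.35 for Ccna1 and 0.34 for Plk3.

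**Figure D5:**
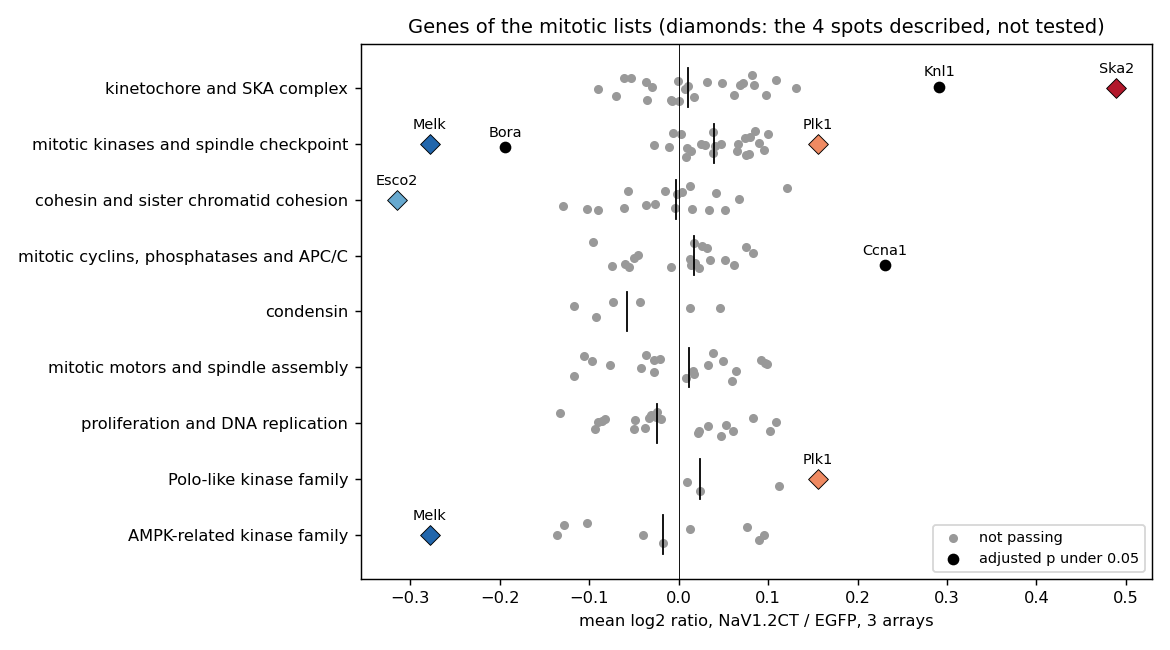
Mean log2 ratio of NaV1.2CT over EGFP across the 3 arrays (horizontal axis) for each gene of 9 lists (rows). Grey points did not pass limma's adjusted p of 0.05, black points passed, and diamonds are the 4 spots described, which were not tested. Short vertical lines are the list medians without the 4 spots. Most genes lie near 0, and the black points are Knl1 and Ccna1 above 0 and Bora below 0.

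In the EGFP channel, 9 of the 146 genes rose and 11 fell at 20 mM against 5 mM, where 13.5% of all probes passed (6.16% higher, 7.33% lower), so their share was near the background. The genes below are examples of both directions. Cenpa, the histone of centromeres, rose by 2.47 (SE 0.22, limma adjusted p = 0.0176), and Foxm1 rose by 1.5 (SE 0.19, limma adjusted p = 0.0267). Haspin, a kinase that marks centromeric histone, fell by 2.54 (SE 0.21, limma adjusted p = 0.0153), and Sgo2a, a protector of centromeric cohesin, fell by 3.05 (SE 0.42, limma adjusted p = 0.0283). Among the relatives of Melk, Nuak1 fell by 1.25 (limma adjusted p = 0.0373) and Nuak2 fell by 1.84 (limma adjusted p = 0.0230). A dimmer probe for Sgo2a had a smaller difference, of -0.60. The lists moved in both directions in the EGFP channel, and array series cannot be told apart from glucose in that comparison.

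The probes whose log2 ratios came closest to each spot over the 3 arrays were sought among named probes above the empty limit with mean A within 1. Likeness is the root mean square difference over the 3 arrays. For Ska2 these were Phlda1 (0.0540), 1700128I11Rik (0.0566) and 1700013D24Rik (0.0867) among 508 probes. For Plk1 they were Pde6g (0.0163), Pacsin3 (0.0165) and Copg2as2 (0.0182) among 2716. For Melk they were Cnot10 (0.0456), Gtse1 (0.0549) and Tyk2 (0.0582) among 2648, and Gtse1, itself a gene of the G2 and S phases, had -0.12 at 5 mM, -0.31 on replicate 1 and -0.25 on replicate 2. For Esco2 they were A730035I17Rik (0.0362), Polg2 (0.0838) and Cyp4f16 (0.0925) among 2822. Of these 12 genes none belongs to the 9 lists.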

How the data were processed

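The members and gene lists were chosen with earlier results of these data known. Two-colour arrays of 23232 spots in 48 print blocks were deposited, with 1235 empty and 231 GAPDH spots. Per the file headers, the deposited raw and background intensities are mean values per spot. The deposited net intensity is raw minus background, at least 0, with the NaV1.2CT channel also scaled by the authors. The deposited ratio is EGFP over NaV1.2CT and was inverted here. A z-score per spot was deposited as a score, and its formula, the scanner and its software are not given in the sources used here.

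Raw intensities were corrected with limma 3.58.1 (R 4.3.3) by normexp at an offset of 50, and the log2 ratio (NaV1.2CT over EGFP) was normalized by loess (span 0.3) per print block, empty spots at weight 0. A second loess over intensity was also run. Spots of one accession and description were averaged, giving 21761 probes, of which 14215 matched a current symbol, 2117 an older one and 96 an accession. EGFP levels were scaled between arrays by Aquantile. Two-sided tests by lmFit and eBayes, called at 0.05 after Benjamini-Hochberg adjustment across the probes, covered the mean ratio at 20 mM, the mean of 3 arrays, the ratio at 5 minus 20 mM, and the EGFP level at 20 minus 5 mM. These had 1, 2, 1 and 1 residual degrees of freedom, to which the prior contributed 7.54, 7.16, 7.54 and 3.19. Where a list gene had several probes, the brightest stood for it. Named were the 4 spots, list genes passing a comparison of ratios, their kinase, SKA and Esco relatives, and the 3 probes nearest in ratio to each spot. List genes named without passing, those of the EGFP channel, and the 50 probes nearest in A were chosen after values were seen. The scripts were tested on simulated data.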

Additional observations from a re-analysis of the deposited data

How the results depend on the processing

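Counts of probes passing moved with the processing. At 20 mM, 459 probes passed (150 higher, 309 lower), against 963 with a second loess, 7648 with loess over the whole array (3268 higher, 4380 lower), 8111 with median centring (4021 higher, 4090 lower), 38 with plain subtraction (10 higher, 28 lower), 79 with the authors' net intensities, 71 with their ratio (31 higher, 40 lower), 66 with an offset of 10 (31 higher, 35 lower) and 808 among probes above the empty limit. Across the 3 arrays, 837 became 7604 with whole-array loess, 8793 with median centring, 2, 1 and 4 with plain subtraction, net intensities and the authors' ratio, 519 with an offset of 10, and 459 to 757 when 1 array was left out. For the ratio at 5 minus 20 mM, 6 became 24, 41, 167, 23, 28, 36 and 12 in the order second loess, whole-array loess, median centring, plain subtraction, net intensities, authors' ratio and offset of 10, 14 when dim probes, under the 25th percentile, were left out, and 3 above the empty limit. For the EGFP level, 2936 became 989 with median scaling. The EGFP count was higher with plain subtraction and with dim probes left out. Leaving out an array leaves no residual degrees of freedom in both glucose comparisons and at 20 mM, so no counts were made there.

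In the same order, the mean of 3 arrays for Ska2 (0.49) was 0.46, 0.36, 0.98, 0.47, 0.41 and 0.38, the offset of 10 changing little. For Plk1 (0.16) it was 0.17 and 0.19, then 0.29, 0.32, 0.32 and 0.20 from plain subtraction on. Melk was -0.19 with whole-array loess and 0.068, of opposite sign, with median centring, and Esco2 was -0.025 with median centring. At 20 mM, Ska2 was 0.46, 0.33, 0.96, 0.46, 0.41, 0.39 and 0.49, and Plk1 0.18, 0.21, 0.10, 0.27, 0.30, 0.30 and 0.20. Melk was -0.30, -0.24 and -0.044 under the 3 other normalizations, -0.28 with net intensities and -0.30 with the authors' ratio, and Esco2 was -0.10 with median centring. Leaving out 1 array gave 0.15 to 0.16 for Plk1, -0.32 to -0.26 for Melk and -0.39 to -0.24 for Esco2. The ratio at 5 minus 20 mM changed sign for Ska2 with whole-array loess (0.080), median centring (0.058), plain subtraction (0.017) and net intensities (0.0033), and for Plk1 with median centring (0.13), plain subtraction (0.039), net intensities (0.062), the authors' ratio (0.068) and an offset of 10 (0.016). The cause of these shifts was not tested. No paired analysis was possible because the low glucose group has 1 array and no replicate number links it to the high glucose arrays. Signal over background limits Plk1, and the scanner limit bounds Ska2.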

Other observations

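Where several probes named a list gene, they could differ. A dim probe for Stag2, a cohesin subunit, rose at 20 mM by 0.27 on the log2 scale (limma adjusted p = 0.0295), and the bright probe that stood for the gene had 0.02. A dim probe for Smc2, a condensin subunit, rose by 0.29 (limma adjusted p = 0.0390), and the bright one had -0.08. In the EGFP channel, the 2 probes for Top2a, the topoisomerase that untangles chromosomes before division, moved in opposite directions at 20 mM against 5 mM, by 1.72 (limma adjusted p = 0.0255) and -2.16 (limma adjusted p = 0.0228). Each of the 4 genes Ska2, Plk1, Melk and Esco2 had a single probe, so no second probe could be set beside it. These probes were singled out after their values were seen.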
